A study of Homo sapiens with 36 samples.

Results

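The genes described here are 41 nuclear genes for the proteins of respiratory complexes II, III and IV and of the ATP synthase, with the copper chaperones SCO1 and SCO2 and the ATP synthase inhibitor ATP5IF1. They are a list of named subunits, and all 41 symbols were matched to 1 of the 62757 gene IDs counted. Transcripts were measured by polyA-selected RNA-seq in HCT-116, a human colorectal carcinoma cell line. The cells were WT or FBXW7-/- (KO), the latter edited by a supplier, and FBXW7 is the substrate-recognition protein of a ubiquitin ligase. KO cells received a control endoribonuclease-prepared siRNA (esiCT), an esiRNA against the class IIa deacetylase HDAC4 (esiHDAC4), or esiCT plus PROTAC #11, a small-molecule degrader of class IIa deacetylases, for 48 h. Each was left untreated or was given 50 µM of the platinum drug oxaliplatin (OXPT) for 24 h, which gave 6 KO groups. The sources used here place these 24 h both within the 48 h and after them. The labels state the dose of #11 as 1 µM in the treatment entry and as 10 µM in the description. A further 2 groups were WT cells, untreated or with 50 µM OXPT. The titles of these WT libraries name esiCT and their treatment entries name esiHDAC4, so which esiRNA the WT cells carried is not settled and every KO against WT value is limited by it. Each of the 8 groups held 3 libraries. Another 12 WT libraries carried opposite OXPT states in title and treatment entry and were placed in no comparison. Whether replicate libraries came from separate cultures is not stated in the labels, so the p-values measure the spread between these libraries.

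The respiratory chain passes electrons to oxygen in the inner mitochondrial membrane, and the ATP synthase uses the resulting proton gradient to make ATP. Complex II, succinate dehydrogenase, also works in the citric acid cycle and is built wholly from nuclear genes. Complexes III and IV and the ATP synthase combine nuclear subunits with subunits that mitochondrial DNA encodes, so their assembly needs both genomes. Colorectal carcinoma lines such as HCT-116 use both glycolysis and respiration, and oxaliplatin acts mainly by forming platinum adducts on DNA.

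Gene counts per library ranged from 10725966 to 20527222, with a median of 14510758. KO esiCT OXPT replicate 3 had the lowest count, left 22.3% of its reads unmapped against 9.46% and 9.74% in the other 2 libraries of its group, and had the lowest TMM scaling factor of all 24 libraries at 0.789. It stands apart for the genes described here, which took 1.25% of its gene counts. They took 0.787% and 0.821% in the other 2 libraries of that group and 0.644% to 0.947% in the other 21 libraries of the 8 groups. FBXW7 transcripts stood at 15.4, 17.2 and 18.1 TMM-scaled CPM, reads per library size, in untreated KO esiCT cells and at 16.9, 23.5 and 22.8 CPM in untreated WT cells. The log2 fold change was -0.32 ± 0.31 (SE, adjusted p = 1 by edgeR), and since an edit need not lower the transcript, this count is no check of the knockout. HDAC4 stood at 8.94, 8.80 and 14.9 CPM with esiHDAC4 and at 18.4, 14.0 and 24.9 CPM with esiCT in untreated KO cells, a log2 fold change of -0.82 ± 0.24 (edgeR adjusted p = 0.561). OXPT itself lowered HDAC4 transcripts in KO esiCT cells to under 8 CPM in each library (log2 fold change -1.56 ± 0.25, edgeR adjusted p = 0.000287). HDAC4 transcripts were higher with #11 than with esiCT under OXPT (1.36 ± 0.25, edgeR adjusted p = 0.0383), and a protein degrader is not checked by a transcript. The epithelial markers EPCAM, CDH1, KRT8, KRT18, KRT19 and CDX2 were expressed and passed the count filter, whereas CDH17 and VIL1 did not. In the 4 comparisons of OXPT with untreated cells KRT8 was called higher in each (log2 fold changes from 1.01 to 1.29) and KRT18 in KO esiCT and KO esiHDAC4 (1.62 and 1.64). EPCAM and CDH1 were below 0 in all 4, down to -0.48 for CDH1 in WT, with 0 called, and KRT19 and CDX2 lay between 0.30 and 1.13, with 0 called. Without KO esiCT OXPT replicate 3, 0 of the 6 markers were called in KO esiCT. The part of these markers in the members' values was not tested. Of 6 markers of other cells, COL1A1 passed it and PTPRC, CD3E, PECAM1, COL1A2 and ALB were at or near 0.

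**Figure D1:**
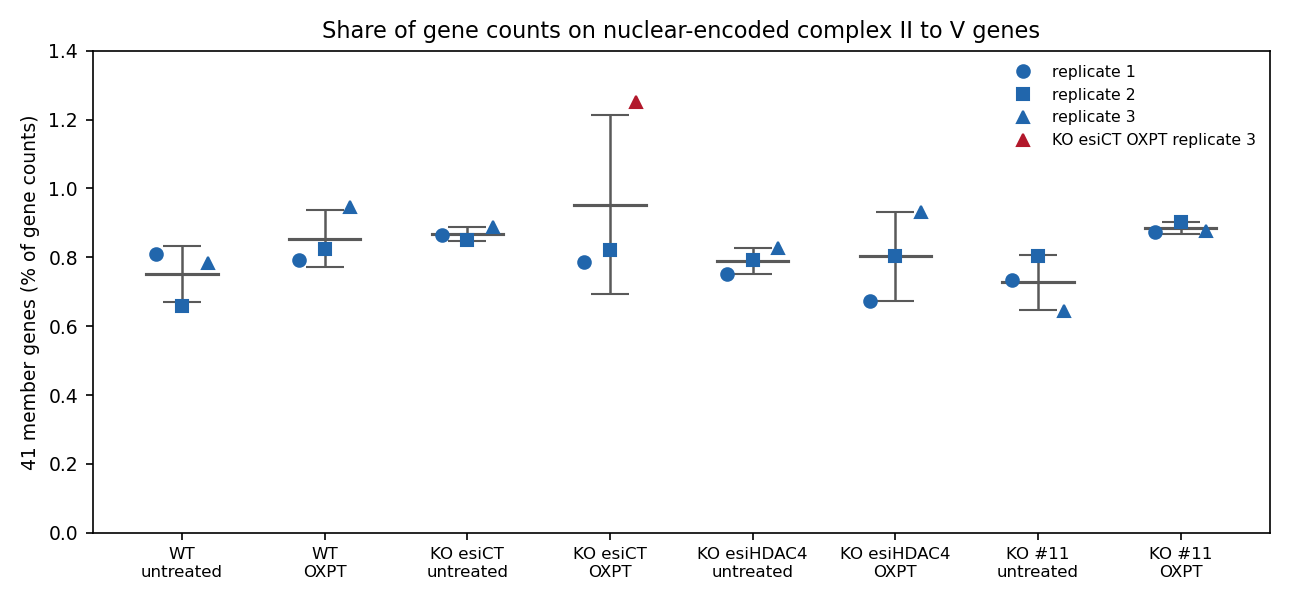
Share of each library's gene counts on the 41 genes (y axis, percent), by group (x axis). Points are single libraries with a marker per replicate number, horizontal lines are means and bars are SD (n = 3). KO esiCT OXPT replicate 3, in red, lies at 1.25%, and the other 23 libraries lie between 0.644% and 0.947%.

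The excess in KO esiCT OXPT replicate 3 was larger for short transcripts, with exceptions among the members. Against the mean of replicates 1 and 2 of its group, 37 of the 40 genes tested were higher, with a median log2 difference of 1.44. For the 19 of them with a canonical transcript under 1 kb the median was 1.57, and for all 1082 genes tested in that length class it was 1.09. The corresponding medians of all genes were 0.47 from 1 to 2 kb, 0.07 from 2 to 4 kb and -0.38 from 4 kb upwards. Those of the 12, 6 and 3 members in these classes were 0.77, 1.04 and -0.06, above all genes in each class. SDHA, with 2693 bases, stood at 1.52 and UQCRB, with 8459 bases, at 1.53. COX6A1, a regulatory subunit of complex IV with a transcript of 537 bases, stood 2.10 above the group's other libraries on the log2 scale, and the core complex III subunit UQCRC2 stood 0.69 below them (a log2 difference of -0.69). Across the 40 genes, Spearman's rho between length and this difference was -0.63, and across 12350 genes with a length it was -0.49. Genes of 1 library are not independent replicates. The libraries WT untreated replicate 2 and replicate 3 also parted by length, with medians of -0.89 and 0.69 for the 19 short members against their own group. Unmapped reads were 13.8% in WT untreated replicate 3, 13.4% in KO esiHDAC4 OXPT replicate 3 and 11.9% in WT OXPT replicate 3, and in these 3 libraries the members' median difference from their group was 0.47, 0.51 and 0.36. Most members are short, with 31 of 40 under 2 kb. The part of length or RNA quality in the comparisons was not tested, so each comparison's median is given with and without KO esiCT OXPT replicate 3. In comparisons that do not use that library, leaving it out acts only through the shared fit, so a like median there is no check.

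**Figure D2:**
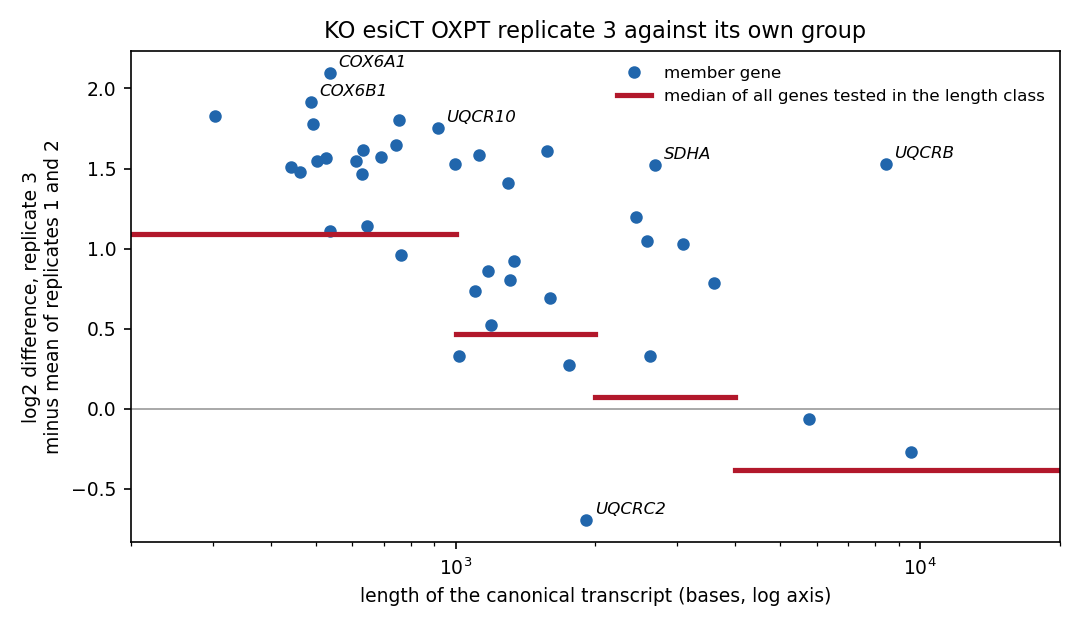
Log2 difference of KO esiCT OXPT replicate 3 from the mean of replicates 1 and 2 (y axis) against canonical transcript length (x axis, bases, log axis). Blue points are the 40 members tested and red lines are the medians of all genes tested in 4 length classes, which fall from 1.09 to -0.38. COX6A1 is the highest member at 2.10 and UQCRC2 the lowest at -0.69.

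The counts have limits that differ between members. Reads were counted without regard to strand, and reads that fell on 2 genes, or mapped to several places, were not counted. For 31 of the 41 genes this kept at least 80% of the reads that the 2 strand-aware columns hold. It kept 1.51% for SCO2, whose exons overlap neighbouring genes, and SCO2 failed the filter of a mean of 64 counts in at least 1 group. It kept 16.2% for ATP5ME, 20.8% for ATP5IF1, 27.0% for UQCR10, 45.7% for UQCRQ, 54.3% for ATP5PF and 61.3% for ATP5PD. This share does not show reads lost to a gene on the same strand, which the strand-aware columns leave out too. Exon sequence was shared on the same strand by 12 of the 41 members. It made up 35.4% of the exon bases of COX8A, 21.7% of SDHA and 13.1% of COX6A1. SDHA had only 56 to 239 counts per library. The annotation names 131 processed copies of 30 of the members, 17 of them of COX6C and 4 of SDHA, so reads of these genes can be shared with near-identical sequence. Levels of such genes are lower bounds, and their fold changes hold only as far as the kept reads represent the gene.

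RefSeq promoter windows, from 250 bases before to 50 after the transcription start in GRCh38.p14, were given for 32 of the 41 genes. The letter strings of 3 factors were searched on both strands: GCGCANGCG (nuclear respiratory factor 1, NRF1), CCGGAAG (the ETS factor GABP) and AAGATGGC (YY1). NRF1 and GABP are known regulators of nuclear genes for respiratory proteins. The NRF1 string stood in the windows of 12 of 32 members (37.5%) and of 9.02% of all 27305 genes with a window. The GABP string stood in 16 of 32 (50.0% against 12.2%) and the YY1 string in 5 of 32 (15.6% against 3.52%). No 2 strings overlapped in a member. A gene with several windows was counted if any of them held the string. The 27305 genes were not limited to those tested here, so the shares do not show a trait of respiratory genes alone. A match is a description of letters, not a bound site. The windows of the 3 members called for OXPT in KO esiCT cells, and of ATP5MC1, which was called for OXPT under #11 in several alternative fits, are shown to the 30th base after the start, with the searched strings, in either orientation, in capitals. SDHA lies at chr5:218070-218349 on the plus strand and holds the NRF1 string 4 times. UQCR10 at chr22:29767119-29767398 (plus strand) holds it once, ending at the start. COX6A1 at chr12:120437863-120438142 (plus strand) holds 1 NRF1 and 1 GABP string, and ATP5MC1 at chr17:48892537-48892816 (plus strand) holds none of the 3.
SDHA: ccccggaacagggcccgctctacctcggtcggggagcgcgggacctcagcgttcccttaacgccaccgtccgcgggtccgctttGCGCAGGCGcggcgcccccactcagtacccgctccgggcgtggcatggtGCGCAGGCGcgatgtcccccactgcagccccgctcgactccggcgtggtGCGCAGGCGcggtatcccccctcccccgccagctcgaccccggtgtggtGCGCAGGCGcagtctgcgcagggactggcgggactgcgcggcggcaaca
UQCR10: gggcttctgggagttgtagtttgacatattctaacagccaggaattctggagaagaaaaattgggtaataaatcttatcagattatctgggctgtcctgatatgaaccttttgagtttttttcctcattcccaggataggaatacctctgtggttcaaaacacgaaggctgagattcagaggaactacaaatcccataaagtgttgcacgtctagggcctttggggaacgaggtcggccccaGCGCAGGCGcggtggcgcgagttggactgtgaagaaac
COX6A1: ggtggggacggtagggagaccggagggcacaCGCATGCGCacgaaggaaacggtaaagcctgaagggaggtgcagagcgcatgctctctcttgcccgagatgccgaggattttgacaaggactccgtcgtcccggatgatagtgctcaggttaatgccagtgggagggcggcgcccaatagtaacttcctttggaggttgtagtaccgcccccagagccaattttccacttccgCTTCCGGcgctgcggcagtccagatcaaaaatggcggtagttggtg
ATP5MC1: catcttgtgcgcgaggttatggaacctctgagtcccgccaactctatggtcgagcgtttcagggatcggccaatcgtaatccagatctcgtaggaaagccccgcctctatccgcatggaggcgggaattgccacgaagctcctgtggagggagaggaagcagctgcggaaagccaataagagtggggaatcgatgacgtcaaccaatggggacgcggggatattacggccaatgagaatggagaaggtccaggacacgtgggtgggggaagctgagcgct

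Levels were compared between members per kilobase of canonical transcript, for the 20 members that kept at least 80% of their reads and share no exon sequence with another gene on the same strand. In untreated KO esiCT cells COX4I1, the largest nuclear subunit of complex IV, was highest at 1017 ± 99.1 CPM per kb (SD, n = 3). UQCRH, the hinge protein of complex III, followed at 749 ± 18.5 and ATP5F1B, the catalytic beta subunit of the ATP synthase, at 683 ± 36.2. COX6B1 and the cytochrome c1 gene CYC1 stood at 543 ± 101 and 499 ± 23.5 CPM per kb and did not differ beyond their spread. The lowest were ATP5F1E at 49.1 ± 2.28, COX7B at 39.1 ± 2.18 and UQCRFS1, the Rieske iron-sulfur protein, at 34.5 ± 1.67. The canonical transcripts of ATP5F1E and COX7B have 3610 and 2444 bases, so a level per kb is low wherever shorter transcripts are used. Processed copies were not part of this filter. COX6B1 has 7, UQCRH and COX7B 4 each, UQCRFS1 3, COX4I1 and ATP5F1E 2 each, ATP5F1B 1 and CYC1 0. The order holds only as far as reads were not lost to such copies.

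OXPT in KO esiCT cells was the comparison with members past the threshold. COX6A1, SDHA (the flavoprotein of complex II) and UQCR10 (a small complex III subunit) were called higher, 3 of 40 members against 6.23% of the 12356 genes tested, and 0 members were called lower against 5.08%. A call needed a Benjamini-Hochberg adjusted p under 0.05 in edgeR's quasi-likelihood test and a fold change over 1.5. By GENCODE, COX6A1 lies at chr12:120438090-120440737, SDHA at chr5:218303-257082 and UQCR10 at chr22:29767369-29770413, all on the plus strand of hg38, and all 3 overlap another gene in part of their exons, SDHA and COX6A1 on the same strand and UQCR10 on the opposite strand. COX6A1 stood at 38.7, 34.1 and 41.3 CPM untreated and at 46.0, 67.2 and 238 CPM with OXPT. All 3 OXPT libraries were above the untreated ones, and replicate 3 lay far above the rest. In bulk RNA, a change in transcript per cell and a change in the number of cells that carry it cannot be told apart. The log2 fold change was 1.62 ± 0.46 (SE, n = 3 per group, edgeR adjusted p = 0.0254). SDHA stood at 7.17, 7.13 and 8.11 CPM untreated and at 8.78, 11.0 and 28.5 CPM with OXPT (log2 fold change 1.09 ± 0.34, edgeR adjusted p = 0.0406). UQCR10 stood at 26.6, 24.1 and 22.8 CPM untreated and at 28.5, 33.2 and 104 CPM with OXPT (log2 fold change 1.17 ± 0.37, edgeR adjusted p = 0.0442). The groups did not overlap for these 3 genes, and without replicate 3 they would not overlap either. With replicate 3 left out, however, 0 members were called, against 3.97% of all genes called higher, and the log2 fold changes of COX6A1, SDHA and UQCR10 were 0.57, 0.40 and 0.33 (edgeR adjusted p = 0.406, 0.457 and 0.587). They were also not called when the fit held only the 6 libraries compared (edgeR adjusted p = 0.172, 0.238 and 0.239), where 2.51% of all genes were called higher. The 3 calls were kept with the replicate number as a block, at log2 fold changes of 1.42, 1.03 and 1.05, against 8.56% of all genes. With all libraries, 5 members had OXPT libraries wholly above the untreated ones, against 15.3% of all genes. An unadjusted p under 0.05 was reached by 15 members, 14 of them higher, against 26.1% of all genes. DESeq2 called 5 members higher, the 3 named and UQCR11 and ATP5IF1, against 8.45% of the genes it tested.

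The median log2 fold change of the 40 members was 0.49 with all libraries, against 0.01 for all genes, with 36 members above 0. With that library left out it was -0.04, with 23 members below 0. Between libraries of the same number the members' median difference was -0.12 for number 1, 0.12 for number 2 and 1.26 for number 3, so 1 library carried the shift. With all libraries the members' medians were 0.74 under 1 kb, 0.13 to 2 kb, 0.35 to 4 kb and 0.05 above. Those of all genes were 0.43, 0.19, 0.02 and -0.14. By structure, in all libraries, the 10 complex IV subunits ran from COX4I1 at 0.30 ± 0.35 to COX6A1 at 1.62, and all 10 were above 0. Complex II ran from SDHC, a membrane anchor, at -0.13 ± 0.24 to SDHA at 1.09, and complex III from UQCRC2 at -0.35 ± 0.29 to UQCR10 at 1.17. SCO1, which delivers copper to complex IV, was at 0.05 ± 0.19. In the catalytic head of the ATP synthase the alpha subunit ATP5F1A was at -0.34 ± 0.15 and the inhibitor ATP5IF1 at 1.01 ± 0.37. In the peripheral stalk, which holds the head still, ATP5PB was at 0.06 ± 0.14 and ATP5PO at 0.80 ± 0.37. The 3 genes for the rotating c-ring subunit ran from ATP5MC3 at 0.31 ± 0.26 to ATP5MC2 at 0.50 ± 0.32. The 3 small subunits of the membrane part ran from ATP5MF at 0.68 ± 0.31 to ATP5ME at 0.94 ± 0.40. Apart from the 3 called genes, none of these passed the test.

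OXPT in WT cells gave 0 called members, against 5.1% of all genes called higher and 5.6% lower. edgeR gave 0 members an unadjusted p under 0.05, against 24.7% of all genes. DESeq2 called 0, but its share of all genes is given only for OXPT in KO esiCT and in KO #11. DESeq2 counts of 0 here and below thus have no background and are no further support. The members' median log2 fold change was 0.23 against -0.06 for all genes, and 33 of 40 were above 0. It was 0.24 without KO esiCT OXPT replicate 3, which is not in this contrast, and between 0.04 and 0.40 over the fits that left out 1 library each. For 5 members the OXPT libraries were all above the untreated ones, against 11.5% of all genes. By length class the members' medians were 0.25 under 1 kb, 0.16 to 2 kb, 0.18 to 4 kb and 0.35 above. Those of all genes were 0.06, 0.09, 0.02 and -0.25. The highest members by structure were SDHA at 0.56 ± 0.34, UQCR10 at 0.51 ± 0.37, COX6B1 at 0.62 ± 0.40, SCO1 at 0.35 ± 0.19, ATP5F1B at 0.27 ± 0.16, ATP5PF at 0.29 ± 0.33, ATP5MC1 at 0.32 ± 0.27 and ATP5MF at 0.44 ± 0.31. The lowest were SDHC at 0.08 ± 0.24, UQCRC2 at -0.03 ± 0.29, COX8A at -0.06 ± 0.39, ATP5F1A at -0.12 ± 0.15, ATP5PD at -0.09 ± 0.32, ATP5MC2 at 0.02 ± 0.32 and ATP5MG at -0.12 ± 0.36. COX6B1, a subunit at the interface of complex IV dimers, stood at 228, 138 and 175 CPM untreated and at 238, 256 and 335 CPM with OXPT. Its groups did not overlap, and it was not called (edgeR adjusted p = 0.375).

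OXPT in KO esiHDAC4 cells called 0 members higher, against 6.44% of all genes, and DESeq2 called 0. The unadjusted p was under 0.05 for 1 member, against 25.4% of all genes. That member was UQCR11, a small complex III subunit, named after its values were seen. It stood at 13.4, 14.6 and 15.6 CPM untreated and at 20.4, 28.0 and 32.8 CPM with OXPT. All OXPT libraries were above the untreated ones, with a log2 fold change of 0.89 ± 0.35 (edgeR adjusted p = 0.109). Without KO esiCT OXPT replicate 3, which enters the shared estimate of the spread and not this contrast, UQCR11 was called at 0.88 ± 0.28 (edgeR adjusted p = 0.042), 1 of 40 members against 7.3% of all genes called higher. The members' median was 0.24 against 0.02 for all genes, with 34 of 40 above 0. It was 0.23 without KO esiCT OXPT replicate 3, and between 0.03 and 0.46 without any 1 library. For 3 members the OXPT libraries were all above the untreated ones, against 18.8% of all genes. By length class the members' medians were 0.37 under 1 kb, 0.14 to 2 kb, 0.24 to 4 kb and 0.13 above. Those of all genes were 0.27, 0.21, 0.06 and -0.19, so other short transcripts were also above 0.

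In KO cells with #11, all 40 members tested had a log2 fold change of OXPT above 0, and 0 of them passed the test. The median was 0.35 against about 0 for all genes. It was 0.32 without KO esiCT OXPT replicate 3, which is not in this contrast, and stayed between 0.25 and 0.46 without any 1 library. By length class the members' medians were 0.42 under 1 kb, 0.27 to 2 kb, 0.51 to 4 kb and 0.29 above. Those of all genes were 0.17, 0.17, 0.05 and -0.20, so other short transcripts were also above 0. The 3 OXPT libraries were all above the 3 untreated ones for 22 of 40 members, against 22.4% of all genes. Members took 0.735%, 0.804% and 0.644% of gene counts untreated and 0.874%, 0.904% and 0.878% with OXPT, and the 2 sets did not overlap. ATP5MC1, which encodes the rotating c-ring subunit, stood at 89.2, 96.7 and 83.6 CPM untreated and at 176, 154 and 131 CPM with OXPT. ATP5MF, which helps hold the membrane part of the ATP synthase together, stood at 42.2, 41.7 and 32.6 CPM untreated and at 68.8, 67.4 and 72.3 CPM with OXPT. COX7B, a small complex IV subunit, stood at 55.7, 72.1 and 53.1 CPM untreated and at 97.9, 107 and 104 CPM with OXPT. In each of these 3 genes the OXPT libraries lay well above the untreated ones. COX6B1 stood at 184, 192 and 155 CPM untreated and at 356, 385 and 288 CPM with OXPT, a log2 fold change of 0.96 ± 0.40 (edgeR adjusted p = 0.15). The log2 fold changes of ATP5MC1, ATP5MF and COX7B were 0.78 ± 0.27, 0.84 ± 0.31 and 0.77 ± 0.27 (edgeR adjusted p = 0.0751, 0.0975 and 0.0784). In all libraries, then, 0 members were called, against 5.94% of all genes called higher. An unadjusted p under 0.05 was reached by 8 members, all higher, against 23.5% of all genes, and DESeq2 called 1 member, ATP5MC1, against 7.41% of its genes.

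The number of members called differed between fits, and the cause was not tested. Without KO esiCT OXPT replicate 3, which is in neither group of this contrast, 7 of 40 members were called higher, against 6.67% of all genes. They were SDHA, UQCR10, COX6B1, COX7B, ATP5MC1, ATP5MC3 and ATP5MF, at log2 fold changes from 0.68 to 0.93. When the fit held only the 6 libraries compared, 9 were called, those 7 and COX6A1 and COX7A2, against 11.3% of all genes. With the replicate number as a block over all 24 libraries, 3 were called: COX7B, ATP5MC1 and ATP5MC3 (edgeR adjusted p = 0.0391, 0.0377 and 0.044), against 8.26% of all genes. Libraries of the same number deviated together between the #11 groups, but not between #11 and esiCT. A number effect shared by all groups is thus not given for the #11 libraries. The lowest log2 fold change of the 40 was that of SCO1 at 0.08 ± 0.19, and then SDHD, a membrane anchor of complex II, at 0.10 ± 0.22.

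**Figure D3:**
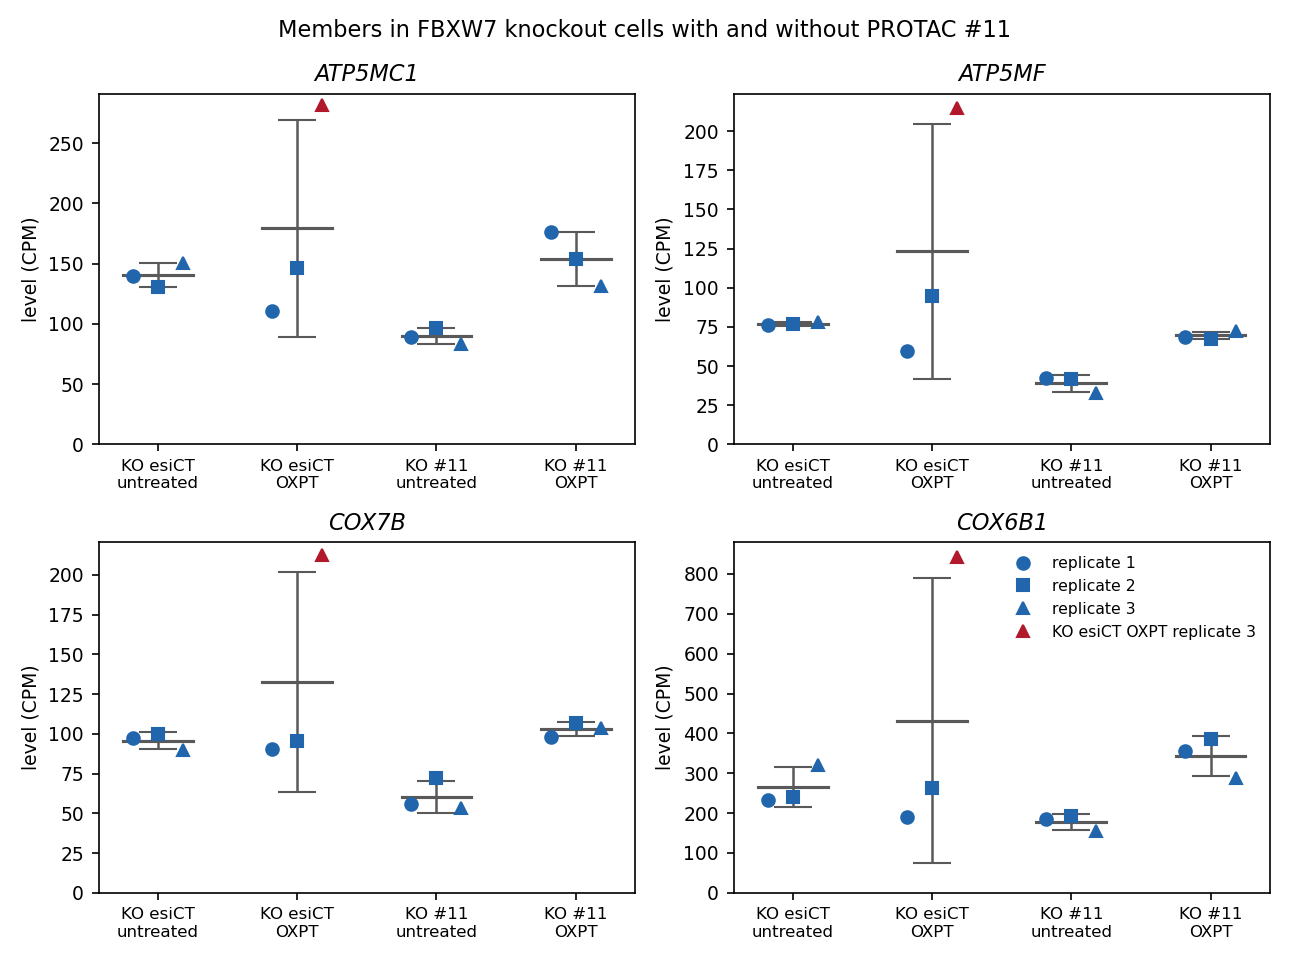
Levels of ATP5MC1, ATP5MF, COX7B and COX6B1 (y axes, CPM) in KO cells with esiCT alone or with #11, untreated or with OXPT (x axes). Points are libraries with a marker per replicate number, horizontal lines are means and bars are SD (n = 3). The untreated #11 libraries lie below all others for ATP5MC1, ATP5MF and COX7B, and for COX6B1 the highest of them (192 CPM) is level with KO esiCT OXPT replicate 1 (190 CPM); the red point is KO esiCT OXPT replicate 3.

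For #11 against esiCT alone in untreated KO cells, 36 of 40 members had a log2 fold change below 0 and 0 passed the test. The median was -0.27 against about 0 for all genes. It was also -0.27 without KO esiCT OXPT replicate 3, which is not in this contrast, and stayed between -0.40 and -0.16 without any 1 library. The untreated #11 libraries are also the reference for OXPT in KO #11, so the values of these 2 comparisons depend on each other. The #11 libraries were all below the esiCT ones for 21 of 40 members, against 14.8% of all genes. For transcripts under 1 kb, from 1 to 2 kb and from 2 to 4 kb the members' medians were -0.27, -0.27 and -0.34, while those of all genes were -0.02, 0.00 and -0.01. From 4 kb upwards the 3 members had a median of -0.03, and all genes were within 0.01 of 0. ATP5MF stood at 76.0, 76.7 and 78.2 CPM with esiCT and at 42.2, 41.7 and 32.6 CPM with #11. Its libraries were tight with esiCT (SD 1.14 CPM) and less so with #11 (SD 5.43 CPM). The log2 fold change of ATP5MF, -0.99 ± 0.31, was the lowest of the members (edgeR adjusted p = 0.137). UQCRC2 stood at 158, 165 and 114 CPM with esiCT and at 86.4, 83.0 and 105 CPM with #11 (-0.67 ± 0.29, edgeR adjusted p = 0.3). COX7B and ATP5MC1 had log2 fold changes of -0.66 ± 0.27 and -0.64 ± 0.27 (edgeR adjusted p = 0.261 and 0.273). By structure the medians were -0.37 for complex II, -0.27 each for complexes III and IV, -0.23 for the ATP synthase head, -0.25 for the stalk, -0.44 for the c-ring and -0.60 for the membrane part. SCO1 was at 0.21 and ATP5MG, of the membrane part, at 0.18. edgeR called 0 members, against 0.51% of all genes, and DESeq2 called 0. An unadjusted p under 0.05 was reached by 5 members, all lower, against 13.8% of all genes. In the fit of the 6 libraries compared, 3 members were called lower, COX7B, ATP5MC1 and ATP5MF, against 1.66% of all genes. With all other libraries and without KO esiCT OXPT replicate 3, ATP5MF was the 1 member called, at -0.98 ± 0.21 (edgeR adjusted p = 0.0326), against 0.299% of all genes called lower. The 6 mitochondrially encoded subunits of complexes III to V had log2 fold changes from 0.14 to 0.62 here, with 0 called.

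esiHDAC4 in untreated KO cells shared the same esiCT libraries as its reference, so its values and those of #11 are not independent of each other. The members' median was -0.18 against about 0 for all genes, 36 of 40 were below 0. The median was -0.17 without KO esiCT OXPT replicate 3, which is not in this contrast, and stayed between -0.22 and -0.11 without any 1 library. The esiHDAC4 libraries were all below the esiCT ones for 17 members, against 12.1% of all genes. COX6B1 stood at 233, 240 and 322 CPM with esiCT and at 108, 133 and 163 CPM with esiHDAC4. The groups were well apart, and the log2 fold change was -0.98 ± 0.40 (edgeR adjusted p = 1). COX8A, a small complex IV subunit, stood at 65.7, 57.9 and 65.3 CPM with esiCT and at 37.4, 39.6 and 41.4 CPM with esiHDAC4 (-0.67 ± 0.39), and COX4I1 was at -0.64 ± 0.35. All 10 complex IV subunits were below 0, with a median of -0.32. The 6 genes of the ATP synthase head and its inhibitor had a median of -0.04. edgeR called 0 members, against 0.00809% of all genes. DESeq2 called 0, and 1 member had an unadjusted p under 0.05, against 3.19% of all genes. With the replicate number as a block in the fit of the 6 libraries compared, COX4I1, COX6B1 and COX8A were called lower, 3 of 40 against 1.98% of all genes. Their log2 fold changes there were -0.66 ± 0.11, -0.97 ± 0.07 and -0.66 ± 0.09 (edgeR adjusted p = 0.017, 0.00521 and 0.0126). By length, all 1082 genes under 1 kb had a median of -0.14 in this comparison and the 19 members among them -0.31. From 1 to 2 kb the medians were -0.10 for all genes and -0.11 for the members.

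Under OXPT, the esiHDAC4 and #11 groups were both compared with KO esiCT OXPT, the group that holds the library that stands apart, and both sets of values turned with it. With all libraries the members' median was -0.54 for esiHDAC4, with 36 of 40 below 0, and -0.35 for #11, with 35 of 40 below 0. Without KO esiCT OXPT replicate 3 the medians were 0.08, with 11 below 0, and 0.14, with 9 below 0. For esiHDAC4, where the numbers pair the libraries, the members' median difference was -0.21 for number 1, -0.01 for number 2 and -0.93 for number 3. COX6B1 was the lowest member for esiHDAC4. It stood at 190, 262 and 842 CPM with esiCT and at 96.3, 181 and 254 CPM with esiHDAC4 (-1.28 ± 0.41, edgeR adjusted p = 1). Its groups overlapped, since esiHDAC4 replicate 3 exceeded esiCT replicate 1. The highest was UQCRC2 at 0.26 ± 0.29. For #11 the lowest was ATP5ME, of the membrane part, at 19.6, 34.9 and 93.3 CPM with esiCT and at 19.8, 25.2 and 22.8 CPM with #11 (-1.12 ± 0.40, edgeR adjusted p = 0.332). The #11 libraries sat between the 2 lower esiCT libraries, and the third esiCT library was far above. The highest was SCO1 at 0.24 ± 0.19. edgeR and DESeq2 called 0 members in either comparison. The share of all genes called was 0% for esiHDAC4 and 0.121% for #11. An unadjusted p under 0.05 was reached by 11 members for esiHDAC4, against 3.08% of all genes, and by 6 for #11, against 10.2%, all of them lower. In neither comparison did the groups of any member lie wholly apart with the treated libraries lower, against 2.51% and 4.89% of all genes.

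**Figure D4:**
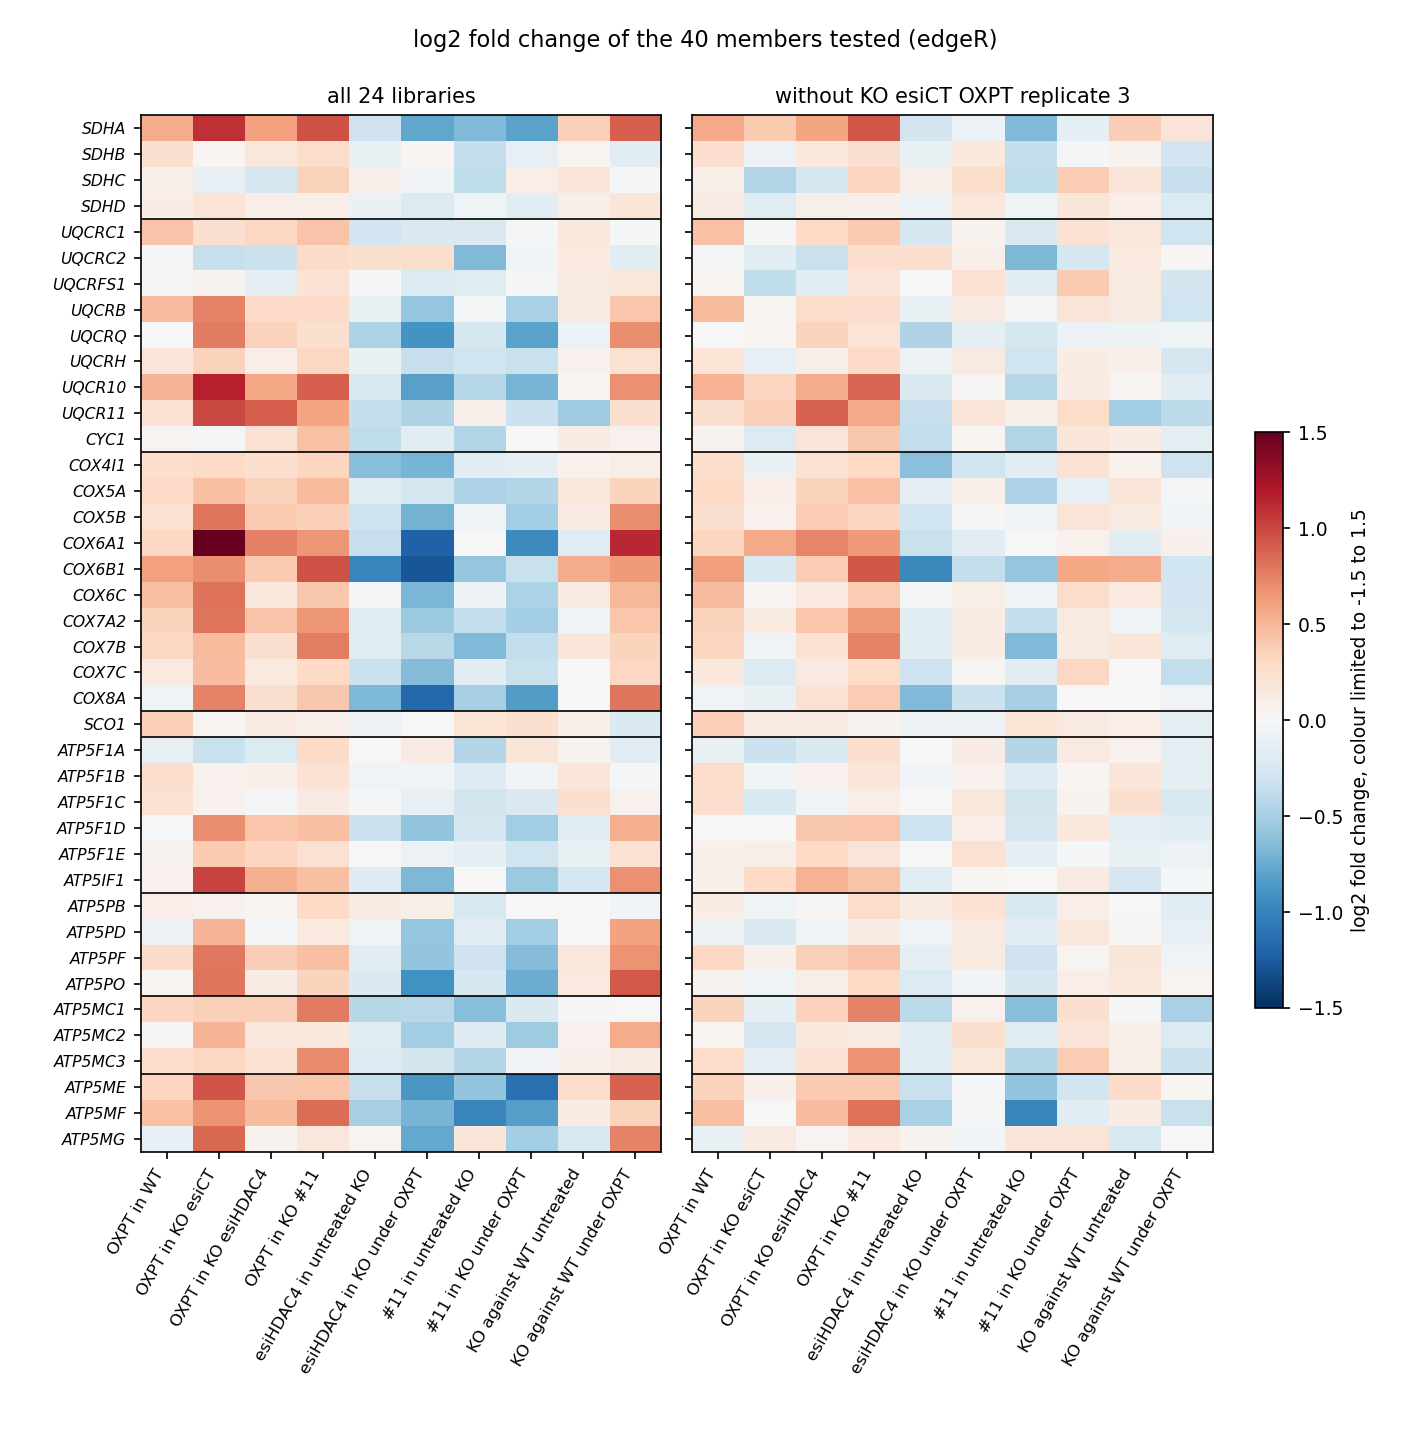
Log2 fold changes of the 40 members tested (rows, grouped by complex and part between black lines) in 10 comparisons (columns), with all 24 libraries on the left and without KO esiCT OXPT replicate 3 on the right. Red is higher and blue lower in the first-named state, and colours are limited to 1.5. The 4 columns that use KO esiCT OXPT fade or turn on the right. For esiHDAC4 under OXPT the median goes from -0.54 to 0.08. OXPT in KO #11 (red) and #11 in untreated KO (blue) do not use KO esiCT OXPT replicate 3, so their like colours on both sides are no check.

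KO against WT untreated had a members' median of 0.08, with 29 of 40 above 0. It was 0.09 without KO esiCT OXPT replicate 3, which is not in this contrast, and between -0.07 and 0.29 without any 1 library. For 5 members, SDHA, SDHC, COX6B1, ATP5F1B and ATP5F1C, the KO libraries were all above the WT ones, against 2.88% of all genes. COX6B1 was highest, at 233, 240 and 322 CPM in KO and 228, 138 and 175 CPM in WT cells (0.55 ± 0.40, edgeR adjusted p = 1), and UQCR11 was lowest at -0.53 ± 0.35. edgeR and DESeq2 called 0 members, against 0.291% of all genes in edgeR, and 0 members had an unadjusted p under 0.05, against 5.74%. Under OXPT the median was 0.33, with 8 members below 0, and without KO esiCT OXPT replicate 3 it was -0.17, with 34 below 0. There 0 members were called by either tool, against 0.138% of all genes in edgeR, and 4 had an unadjusted p under 0.05, against 5.4%.

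The 3 tests of a difference between OXPT effects called 0 members and 0 genes in all by edgeR, that is 0% for each, and DESeq2 called 0 members. Unadjusted p-values under 0.05 were held by 0 members for genotype, 0 for esiHDAC4 and 1 for #11, against 1.63%, 0.154% and 6.98% of all genes. That member was ATP5F1A, at 0.62 ± 0.21 (edgeR adjusted p = 0.464). The members' medians were 0.26 for KO minus WT, -0.24 for esiHDAC4 minus esiCT and -0.12 for #11 minus esiCT. With the library left out they were -0.25, 0.24 and 0.38, the opposite sign in each.

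**Figure D5:**
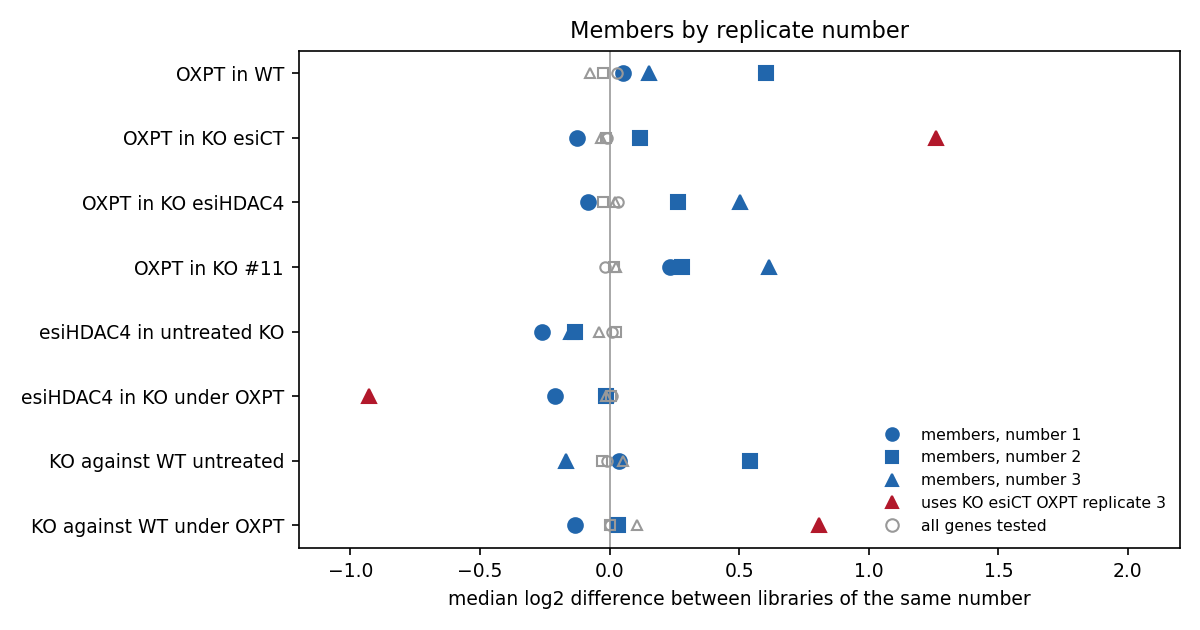
Median log2 difference (x axis) between libraries of the same replicate number in the 8 comparisons whose numbers pair the libraries (y axis). Filled markers are medians of the 40 members with a marker per number, open grey markers are medians of all 12356 genes. Red marks the differences that use KO esiCT OXPT replicate 3, such as 1.26 for OXPT in KO esiCT against -0.12 and 0.12 for the other numbers.

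Other genes of the pathway were taken as lists. Of 28 assembly factors tested of 34 listed, OXPT called 4 higher and 1 lower in KO esiCT, 1 and 1 in WT, 2 and 2 in KO esiHDAC4, and 1 and 1 in KO #11. The shares of all genes called higher and lower were 6.23% and 5.08%, 5.1% and 5.6%, 6.44% and 5.54%, and 5.94% and 3.57% in the same order. UQCC1, an assembly factor of complex III, was called higher in all 4, with log2 fold changes of 0.65 ± 0.18, 0.76 ± 0.18, 0.68 ± 0.18 and 0.97 ± 0.18 (edgeR adjusted p from 0.00173 to 0.0238). COX18, which inserts a mitochondrially encoded complex IV subunit into the membrane, was called lower in all 4, from -1.004 ± 0.23 in KO esiCT to -0.81 ± 0.22 in KO #11 (edgeR adjusted p from 0.00605 to 0.0249). Without KO esiCT OXPT replicate 3 UQCC1 and COX18 were still called in all 4, while the calls of SDHAF2, BCS1L and COX14 in KO esiCT were lost. COX14 had a log2 fold change of 1.89 ± 0.45 there with all libraries. Without that library the number of assembly factors called higher was 1 in KO esiCT, 2 in WT, 5 in KO esiHDAC4 and 3 in KO #11. The number called lower was the same as with it. Of all genes tested, this fit called 3.97% higher for esiCT, 7.3% for esiHDAC4 and 6.67% for #11, each with KO cells. Its share for WT and its shares called lower are not given, so those counts have no background. In that fit, BCS1L and ESRRA were called higher in WT (0.79 ± 0.25 and 0.76 ± 0.23, edgeR adjusted p = 0.0443 and 0.0315). None of the 6 further subunits and carriers or the 6 mitochondrially encoded subunits was called for OXPT. Of 9 regulators tested of 10 listed, ESRRA, an estrogen-related receptor that acts on respiratory genes, was called higher by OXPT in KO esiHDAC4 at 0.95 ± 0.27 and in KO #11 at 0.84 ± 0.26 (edgeR adjusted p = 0.0225 and 0.0496). NRF1, GABPA and YY1 were not called in any of these 4 comparisons. No gene of the 4 lists was called for esiHDAC4, #11 or genotype, by edgeR, in either OXPT state.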

How the data were processed

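RNA-seq counts per gene of 36 HCT-116 libraries were used, 24 of them in 8 groups of 3. The authors deposited raw read counts in STAR's per-gene layout, with an unstranded, a forward and a reverse column. The submitters' processing notes name Trimmomatic 0.39, STAR 2.7.11a and hg38, and the annotation is not given in the sources used here. Reverse and forward totals were nearly equal (ratio 1.00 to 1.02), so the unstranded column was taken. IDs were matched to GENCODE 44 without version (62686 of 62757). The 12356 genes whose mean raw count reached 64 in any group were scaled by TMM and tested by edgeR 4.0.16 (quasi-likelihood, 1 coefficient per group, R 4.3.3). In 13 comparisons, a call took 0.05 as the limit of the adjusted p and 1.5 as the least fold change. The fit was tested on simulated counts, drawn with no library that departs by transcript length and no replicate-number effect. That test is thus no check of the calls against either. The SE of an edgeR log2 fold change is its absolute value divided by the square root of the F statistic. It rests on the spread over all libraries in the fit, not only on the groups compared. CPM values use TMM-scaled library sizes. DESeq2 1.42.0 was an alternative to edgeR, with its share of all genes given only for OXPT in KO esiCT and in KO #11. Genes were named by rule: called members, the highest and lowest by structural part for OXPT in KO esiCT and WT, and the extremes of esiHDAC4 and #11 under OXPT. Others are named for their place in a count or as extremes after values were seen. The members and lists were chosen with earlier results of these data known. Same-numbered libraries deviated together (all correlations over 0.1) in 8 of 10 comparisons of 2 groups, and not in the 2 of #11 with esiCT. The labels name no shared culture.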

Additional observations from a re-analysis of the deposited data

How the results depend on the processing

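Percentages in brackets are the shares of all genes called in the members' direction in the same fit. For OXPT in KO esiCT, the 3 called members became 5 with DESeq2 (8.45%), 1 with a mean count of 64 required in every group (4.67%), and 0 in the fit of the groups compared (2.51%), there with the replicate block (5.27%), and with number 3 left out of all groups without and with the block (9.08% and 9.75%). Leaving out 1 library gave 0 to 12, with 0 when the OXPT library numbered 3 (3.97%) or any 1 untreated library of KO esiCT was left out, 12 when its OXPT library 1 was (7.74%), and 5 when WT untreated library 3 was (8.53%). With reverse-strand counts COX6A1 and SCO2 were called (5.3%), and with no count filter UQCR10, COX6A1 and ATP5IF1 (2.19%). Genes on the opposite strand overlap 62.1% of SCO2's exon bases. Forward and reverse totals were nearly equal, so SCO2's reverse counts can include reads of those genes, here and in KO esiHDAC4. For OXPT in KO #11, 0 became 2 with reverse-strand counts (5.06%), 1 with DESeq2 (7.41%), 1 with no count filter (1.65%), 9 in the fit of the groups compared (11.3%), 10 there with the block (12.4%), 3 with the replicate block (8.26%), and 3 without number 3, without and with the block (10.7% and 11.2%). Leaving out 1 library gave 0 to 7, the highest without KO esiCT OXPT replicate 3 (6.67%). For OXPT in KO esiHDAC4, 0 became 1 with reverse-strand counts (SCO2, 4.96%), 1 in the fit of the groups compared without and with the block (5.75% and 8.86%), and 1 without number 3, without and with the block (8.99% and 9.64%). Leaving out 1 library gave 0 to 1. For #11 in untreated KO, 0 became 1 with no count filter (0.513%), 3 in the fit of the groups compared (1.66%) and 3 without number 3, without and with the block (7.51% and 7.92%). Leaving out 1 library gave 0 to 1. For esiHDAC4, 0 became 3 untreated with the block in the fit of the groups compared (1.98%), and 1 (COX6B1) under OXPT with no count filter (0.007%). The causes were not tested. The replicate block in all libraries changed the count of OXPT in KO #11 alone, and RLE scaling changed none. The alternatives without number 3 and with the block in the groups compared were chosen after seeing the data. At 3 libraries a group, the depth and spread leave log2 standard errors from 0.14 to 0.46 for members in comparisons of 2 groups.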

Other observations

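In the 12 WT libraries that entered no comparison, the 41 genes took 0.602% to 0.912% of gene counts, with a median of 0.759%.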
